A study of Homo sapiens with 3 samples.

Results

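Ribosome footprint peaks of the transcription termination site (TTS) class were examined in the peak lists of 3 HEK293T libraries. The class holds every peak whose annotation by the authors names the end of a transcript, and no measured value was used to choose it. It held 2176 of the 46819 peaks of the series, 637 of the 11219 in the vector list, 971 of the 19920 with wild-type and 568 of the 15680 with G325E, and named 398 genes. HEK293T is a human embryonic kidney line carrying adenovirus and SV40 sequences. Its cells were transfected for 24 h with an empty pCDNA3.1 vector (vector), with FLAG-tagged wild-type DDX3X (wild-type) or with FLAG-tagged DDX3X G325E (G325E), a substitution linked to cancer in a DEAD-box RNA helicase. Per the labels, all cells then received harringtonine at 2 µg/ml for 90 s and cycloheximide at 100 µg/ml, and no removal of the DDX3X of the cells themselves is described. There was 1 library per construct, so differences between lists carry no replicate check, no p-value is given, and all 95% intervals cover counting error only. The lists give positions without heights or counts. Mapped reads per library are stated elsewhere in the study and differed between the libraries, most being in wild-type; they were not used here, and their part in the differences between lists was not tested.

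A ribosome translates a coding sequence from its start codon to its stop codon, so the 3' untranslated region (UTR) normally carries few elongating ribosomes, and sequence past the poly(A) site is not part of the mRNA. Harringtonine holds initiating ribosomes at start codons, and cycloheximide halts elongating ones. The TTS class of the HOMER annotation is a matter of distance: it takes a peak that lies from 100 bases before to 1000 bases past the end of a transcript, on either strand, before the exon and UTR classes are considered. In a compact genome region such a window can reach the last exons of a neighbour that runs the other way, or the host gene of a small nucleolar RNA (snoRNA) or microRNA, whose short transcript ends inside that host.

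A minority of TTS peaks held a stop codon, 9.42% in vector, 8.55% with wild-type and 7.39% with G325E. Such peaks lay in the named gene or in another gene. The sequences around some of these stop codons are shown to place the peaks on the genome. A stop codon of an annotated coding sequence lay inside a TTS peak of all 3 lists at 28 counted sites. Of these, 13 were in the named gene and 15 in another gene. TGA was the stop codon at 19 of the 28, TAA at 7 and TAG at 2. Part of the genome was left out of this count, so its numbers are minimum values. Stop codon use over all coding genes was not counted, so a preference for TGA was not tested. The first 4 sequences below are from named genes and the next 6 from other genes, in whose coding sequence peaks named to RAD9A, MIR3620, SPSB2, LONP1, ELOVL1 and LAMA5 lay. All are reference bases of GRCh37, 30 per site, read 5' to 3' on the coding strand, with the stop codon in capitals.
RPL18, chr19:49118617-49118646, minus strand: cgaggctacaaaaacTAAccctggatccta
RPS19, chr19:42375428-42375457, plus strand: gccaacaagaagcatTAGaacaaaccatgc
PSMB3, chr17:36920403-36920432, plus strand: aaggcccgaatggacTAAccctgttcccag
H3C10, chr6:27778245-27778274, plus strand: cgcggcgagagggctTGAgtctcaaggact
PPP1CA (named RAD9A), chr11:67165994-67166023, minus strand: gccaaagccaagaaaTAGcccccgcacacc
ARF1 (named MIR3620), chr1:228285697-228285726, plus strand: ctccggaaccagaagTGAacgcgacccccc
TPI1 (named SPSB2), chr12:6979530-6979559, plus strand: atcaatgccaaacaaTGAgccccatccatc
RPL36 (named LONP1), chr19:5691615-5691644, plus strand: gctgccaagaaagacTGAgcccctcccctg
CDC20 (named ELOVL1), chr1:43828783-43828812, plus strand: caccaaggcatccgcTGAagaccaacccat
ADRM1 (named LAMA5), chr20:60883800-60883829, plus strand: gacatgagcctggacTGAgccacgcgccgt

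The lengths of these peaks were alike between lists at some sites and differed at others. At the RPL36 stop codon the peak was 101 bases long in vector, 101 with wild-type and 103 with G325E. At H3C10 the lengths were 108, 112 and 108 bases. At PPP1CA, the catalytic subunit of a protein phosphatase, they were 71, 123 and 71 bases, so the wild-type peak was the longer one. At TPI1, the glycolytic triosephosphate isomerase, they were 74, 54 and 53 bases. The peak at RPL28, a ribosomal protein, was 117 bases long in vector, 102 with wild-type and 59 with G325E.

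The TTS class took a smaller share of the G325E list than of the others. It was 5.68% of vector peaks (5.26 to 6.12), 4.87% of wild-type peaks (4.58 to 5.18) and 3.62% of G325E peaks (3.34 to 3.93), by Wilson's method. G325E minus wild-type was -1.25 percentage points (Newcombe interval -1.67 to -0.83) and G325E minus vector was -2.06 points (-2.58 to -1.54). Wild-type minus vector was -0.80 points (-1.33 to -0.29), but -0.31 (-0.68 to 0.06) for TTS peaks on the strand of the named transcript and -0.91 (-1.97 to 0.15) in the window of any model end, both of which take in 0. Peaks of the G325E list were also richer in G and C. Among classes of equal GC content the difference between G325E and wild-type was -0.24 points, with an interval of -0.73 to 0.25 that takes in 0, and that between G325E and vector was -0.88. Within genes with a peak in all 3 lists it was -0.50 points against wild-type (-1.07 to 0.07), which takes in 0 as well, and -1.18 against vector. A count of genes in place of peaks gave the same order: 234 of 2073 genes with a peak in vector (11.3%, 10.0 to 12.7), 337 of 3126 with wild-type (10.8%, 9.74 to 11.9) and 198 of 2396 with G325E (8.26%, 7.23 to 9.43) had a TTS peak. Among the genes with a peak in all 3 lists this share was 11.3% in vector, 12.7% with wild-type and 10.4% with G325E, so that wild-type and vector changed places. The authors numbered their peaks, and 14.8% of the numbers were missing for vector, 13.5% for wild-type and 0 for G325E. The part of these missing numbers in the shares was not tested.

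**Figure D1:**
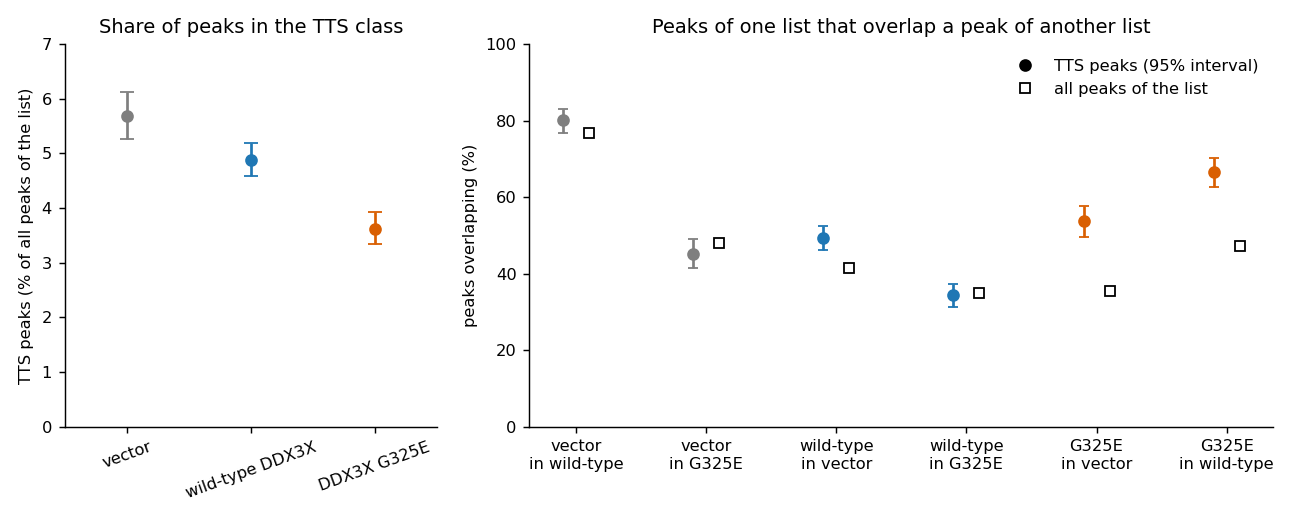
Left, TTS peaks as a percentage of all peaks of each list, with 95% Wilson intervals. Right, percentage of the TTS peaks of one list that overlap any peak of another by at least 1 base (filled, with 95% intervals), beside the same percentage over all peaks of that list (open squares). TTS peaks of G325E stand above the squares, at 53.7% against 35.4% in vector and at 66.5% against 47.3% in wild-type; G325E peaks of the exon class, not drawn, were in any other list in 67.0%, close to the 70.2% of TTS peaks.

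TTS peaks were spread over the window and did not gather at the transcript end. The named transcript was found among GENCODE models for 2078 of the 2176 peaks, and the midpoint of 1975 lay within the window of that model. There the median distance past the end was 453 bases in vector, 456 with wild-type and 508 with G325E, with quartiles of 160.5 and 735.5, 175 and 724, and 238 and 742. Peaks before the end made up 11.1%, 9.40% and 9.16%, so about 9 in 10 lay past the transcript that named them.

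Most TTS peaks lay in an exon of another gene. Counting by midpoint, 512 of 637 in vector (80.4%, 77.1 to 83.3), 768 of 971 with wild-type (79.1%, 76.4 to 81.5) and 460 of 568 with G325E (81.0%, 77.6 to 84.0) did so. Among all other peaks of the lists this held for 14.8%, 12.1% and 13.2%, and among peaks of the 3' UTR class for 0.73%, 5.71% and 0.0%. Since the window runs mostly past the named transcript, a low share in the named gene follows from the rule. The rule does not fix whether the rest lie in other exons or in none. In no exon were 7.06%, 8.96% and 7.57%, against 13.1%, 13.9% and 22.7% of other peaks. An exon of the named gene held 80 peaks in vector (12.6%), 116 with wild-type (11.9%) and 65 with G325E (11.4%).

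The exons concerned were mainly coding. Coding sequence held 73.5% of TTS peaks in vector (69.9 to 76.7), 69.8% with wild-type (66.9 to 72.6) and 72.7% with G325E (68.9 to 76.2), against 63.3%, 62.7% and 46.2% of the other peaks. The 3' UTR held 8.48%, 11.6% and 6.34%, against 2.12%, 2.44% and 1.59% of other peaks. For peaks in the named gene the rule favours the 3' UTR, since the window takes in the end of the transcript. The 5' UTR held 3.77%, 3.71% and 7.75%, against 14.2%, 14.0% and 23.8%. The other peaks include 12230 of the promoter-TSS class, whose annotation names a transcription start. How far this sets the 5' UTR difference was not tested. TTS peaks thus made up 6.53%, 5.40% and 5.58% of all peaks that lay in coding sequence, and 19.4%, 19.7% and 13.0% of those in a 3' UTR. A count of 3' UTR peaks by annotation class alone would leave these out.

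**Figure D2:**
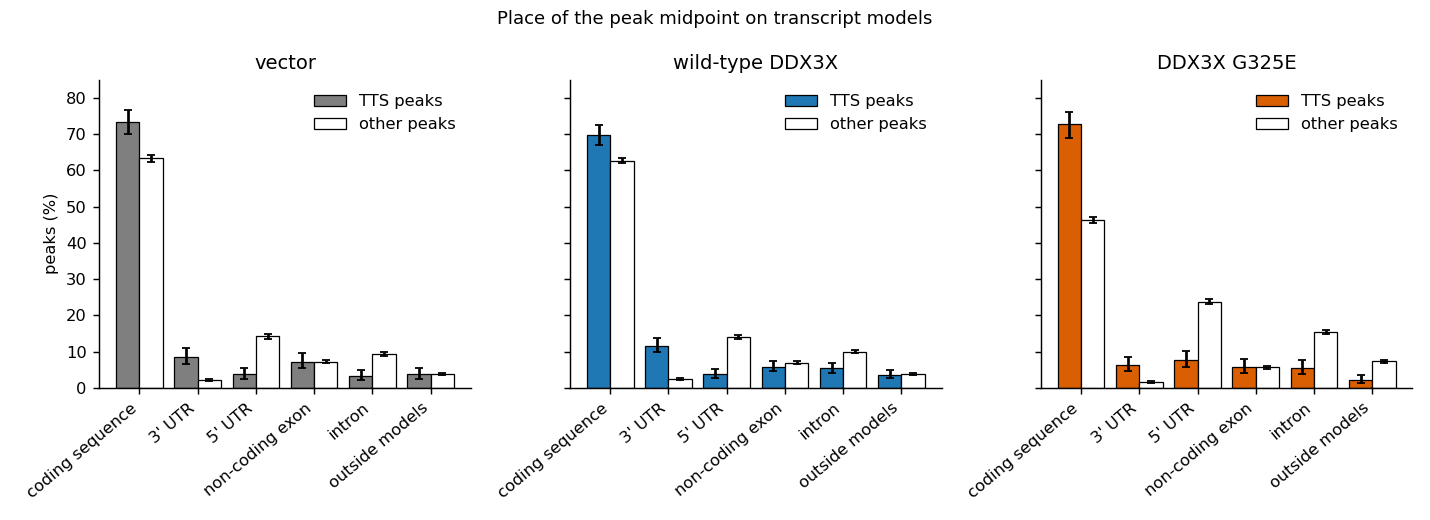
Percentage of TTS peaks (filled) and of all other peaks (open) whose midpoint lay in each kind of sequence on GENCODE models, by list, with 95% Wilson intervals. In each list the TTS class is higher than other peaks in coding sequence and 3' UTR and lower in 5' UTR. The other peaks include the promoter-TSS class.

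Within coding sequence the TTS peaks sat late. On a scale from 0 at the start codon to 1 at the stop codon, their median position in the gene that carried them was 0.76 in vector, 0.79 with wild-type and 0.65 with G325E, against 0.48, 0.50 and 0.30 for other peaks. The stretch from 0.9 to 1.0 of the coding sequence held 27.4% of the coding TTS peaks in vector, against 9.66% of other coding peaks. A stop codon lay inside 60 TTS peaks in vector (9.42%), 83 with wild-type (8.55%) and 42 with G325E (7.39%), against 1.87%, 1.70% and 0.82% of other peaks. Although the class was 3.62% to 5.68% of the lists, it held 23.3%, 20.4% and 25.3% of the peaks with a stop codon. The class is chosen by distance to a transcript end, so in the named gene a late position and a stop codon follow from the rule. The named gene held 25 of the 60 stop codon peaks in vector, 31 of 83 with wild-type and 18 of 42 with G325E. How far the rule also favours them in other genes was not tested. A start codon lay inside 1.57%, 1.96% and 3.70% of TTS peaks, against 5.77%, 4.73% and 6.65% of other peaks. The other peaks include the promoter-TSS class. Its part in the start codon shares and in the coding positions was not tested. G325E had the highest of these start codon shares, and its TTS peaks also lay nearest to transcription starts: 60.4% were within 1000 bases of one, against 47.6% in vector and 45.3% in wild-type. The share within 1000 bases was not taken for other peaks. Their start codon share was also highest and their coding position earliest in G325E, so the order is not particular to TTS peaks in those 2 measures.

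**Figure D3:**
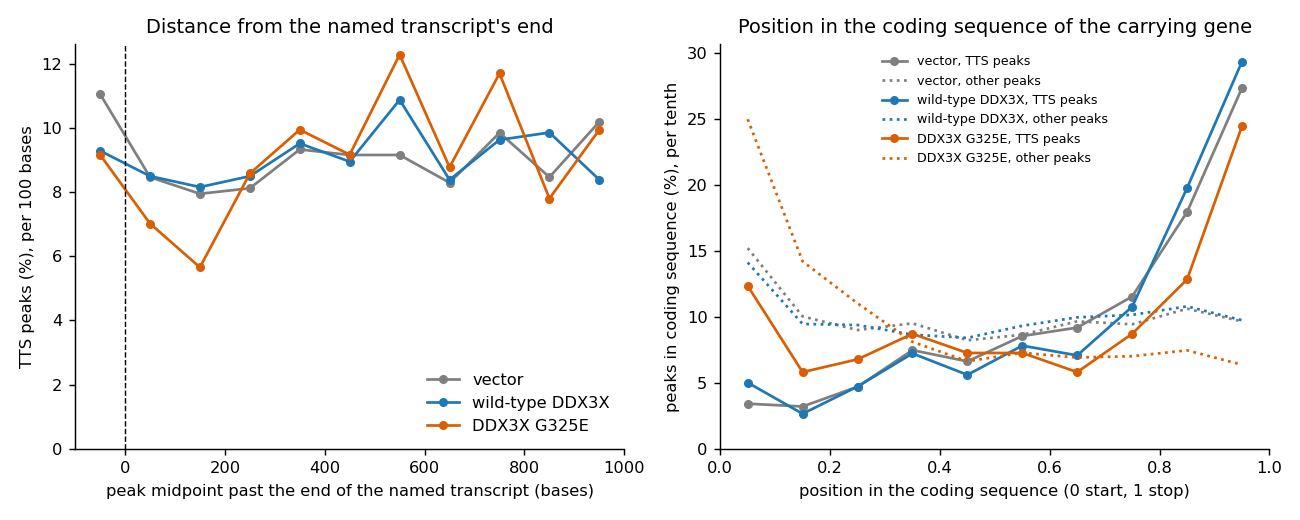
Left, TTS peaks by the distance of their midpoint past the end of the named transcript, in steps of 100 bases (dashed line, the end). Right, peaks in coding sequence by their position between start (0) and stop codon (1) of the gene that carries them, TTS peaks as solid and other peaks as dotted lines. The distance is spread over the window, whereas the coding position of TTS peaks rises to 27.4% past 0.9 in vector, with 9.66% of other peaks there.

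The strand of the peaks followed the gene that carried them more often than the gene that named them. TTS peaks were on the strand of the named transcript in 287 of 609 cases in vector (47.1%, 43.2 to 51.1), 453 of 930 with wild-type (48.7%, 45.5 to 51.9) and 299 of 539 with G325E (55.5%, 51.3 to 59.6). For peaks named to mRNAs these shares were 34.5%, 37.4% and 48.7%, and for small RNAs 83.0%, 85.4% and 79.5%. They were on the strand of the carrying gene in 95.1%, 91.2% and 89.0%, against 90.8%, 89.7% and 83.0% of other peaks and 70.8%, 62.9% and 69.7% of the 3' UTR class. Where models on both strands placed a midpoint in the same kind of sequence, the one on the strand of the peak was taken, for all classes alike. Where another gene carried the peak, that gene was on the opposite strand to the named gene in 60.2% in vector, 61.1% with wild-type and 48.9% with G325E. How the authors assigned a peak's strand is not given in the sources used here.

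CIMIP2A, a gene of ciliary microtubules, had the most TTS peaks, and none lay in its exons. It was named by 14 peaks in vector, 14 with wild-type and 9 with G325E on chr9:140137029-140138019. All 37 lay in coding sequence of TUBB4B, a beta-tubulin, and 1 was on the strand of CIMIP2A. The bases covered in all 3 lists came to 470, the longest run being 88. Tubulin genes are similar in sequence, so values of a single copy are uncertain.

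Other genes with the most TTS peaks also had most of them in exons of a neighbour. PPAN-P2RY11 was named by 9, 9 and 8 peaks (vector, wild-type, G325E, the order used below), 25 of 26 in exons of another gene, EIF3G, a subunit of initiation factor eIF3. RAD9A, a DNA damage checkpoint gene on the plus strand, was named by 10, 7 and 8 peaks, all 25 in PPP1CA on the minus strand. KAT5, an acetyltransferase, was named by 9, 7 and 6, all 22 in RNASEH2C, a subunit of ribonuclease H2. SLC35A2, a UDP-galactose transporter, was named by 7, 6 and 7, all 20 in coding sequence of PQBP1, a polyglutamine-binding protein. CCDC142 was named by 7, 9 and 6, of which 19 lay in MRPL53, a mitochondrial ribosomal protein, and 2 in its own exons, with 21 of the 22 on the strand of CCDC142. In these genes all 3 lists had peaks.

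LMNB2, which encodes lamin B2, was mixed. It had 9, 7 and 10 peaks, of which 8 lay in its own exons, 13 in exons of another gene and 5 in none. TIMM13, a chaperone of the mitochondrial intermembrane space, was the neighbour.

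Genes with many bases covered in all 3 lists included neighbours on the same strand and start codons. GNRH2, a peptide hormone gene, was named by 5, 5 and 6 peaks, all within MRPS26, a mitochondrial ribosomal protein, and all on the strand of GNRH2. A non-coding transcript without a symbol was named by 4, 3 and 5 peaks in TUBB2A, a second beta-tubulin. MIR3661 was named by 2, 2 and 3 peaks at PPP2CA, the catalytic subunit of protein phosphatase 2A, with 3 of the 7 over a start codon and 230 bases covered in all 3 lists.

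**Figure D4:**
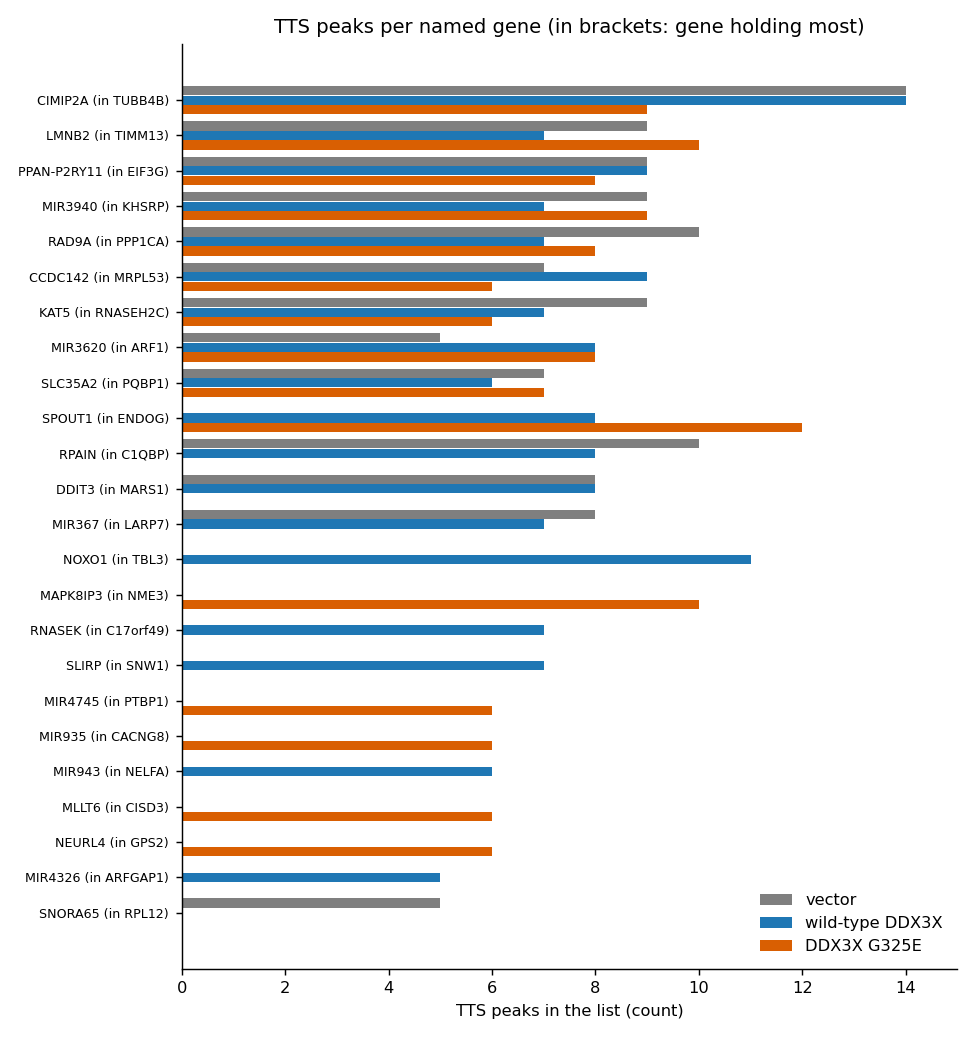
Number of TTS peaks in each list for the genes with the most TTS peaks or with peaks missing from some lists, with at least 5 in all, sorted by their sum; the other gene that held the most of them is in brackets. CIMIP2A leads with 14, 14 and 9 peaks, and genes such as NOXO1 and MAPK8IP3 have bars in 1 list only.

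Small RNAs named 530 TTS peaks, and nearly all of these lay in exons of the genes around them. Only 3 had their midpoint in the small RNA itself, 495 were in an exon of another gene (93.4%) and 32 in no exon. SnoRNAs, guides of ribosomal RNA modification that are released from introns, were 40 of the genes, with 108 peaks in vector (17.0% of TTS peaks), 127 with wild-type (13.1%) and 48 with G325E (8.45%). MicroRNAs were 29 of the genes, with 59 (9.26%), 97 (9.99%) and 91 (16.0%). The 2 kinds thus stood in opposite order between G325E and the others, and snoRNA genes with a peak numbered 35, 37 and 18, microRNA genes 14, 22 and 19.

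Of the 62 genes whose exons carried peaks named to small RNAs, 19 encoded cytosolic ribosomal proteins and 5 encoded translation factors. The shares of these groups among all genes with a peak were not taken. SNORD105B was named by 6, 5 and 7 peaks, all within PPAN, a ribosome assembly factor. SNORA75 was named by 5, 6 and 3 within NCL, which encodes nucleolin, and SNORD43 by 5, 4 and 4 within RPL3. SNORD68 was named by 5, 3 and 4 within RPL13, and SNORD37 by 3, 5 and 4 within EEF2, an elongation factor. SNORD58A in RPL17 had 4, 5 and 4. Each of these snoRNAs was present in all 3 lists, whereas SNORD83B in RPL3 (5, 8 and 0) and SNORD97 in EIF4G2 (5, 7 and 0) had none in G325E.

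For microRNAs, MIR3940 was named by 9, 7 and 9 peaks within KHSRP, an RNA-binding protein of AU-rich elements. MIR3620 was named by 5, 8 and 8 within ARF1, a GTPase of Golgi traffic, 3 of which covered the ARF1 stop codon printed above. MIR3615 was named by 7, 6 and 7 within NHERF1, a scaffold protein, 3 of them over a start codon. Of the 247 peaks named to microRNAs 0 had their midpoint in the microRNA, 218 were in an exon of another gene and the others in no exon.

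Counted by the gene that carried them, TTS peaks in exons of another gene fell on 254 genes. Cytosolic ribosomal proteins were 27 of these, with 87 peaks in vector, 104 with wild-type and 41 with G325E, and 158 of their 232 peaks were named to a small RNA. Translation factors were 7 genes with 28, 39 and 17 peaks, and mitochondrial ribosomal proteins 6 genes with 19, 24 and 11. These groups were not counted over peaks of any class. Whether the counts are particular to the TTS class was therefore not tested. RPL3 had the most of the ribosomal proteins, with 12, 13 and 6 peaks named to SNORD43, SNORD83B and SNORD139. It had 24, 27 and 17 peaks of any class. PTOV1 carried 7, 10 and 9, and SELENOH, a selenoprotein, 6, 8 and 6.

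Peaks in the named gene itself numbered 261, from 118 genes, and cytosolic ribosomal proteins gave 66 and histones 46 of them. The shares of these groups among peaks of other classes were not taken. The canonical 3' UTR of the 104 coding genes among them had a median of 103.5 bases (quartiles 55.75 and 578.75), and 52 of them had a 3' UTR of 100 bases or less. Over all 20149 coding genes the median was 1005 bases and 8.23% were that short, and over the 3469 with any peak the values were 1025 bases and 7.67%. The window starts 100 bases before the transcript end, so it reaches the coding sequence of a gene only where the 3' UTR is short, and this difference is fixed by the rule. Of these peaks 48.8%, 50.9% and 63.1% lay in coding sequence and 32.5%, 37.9% and 26.2% in the 3' UTR.

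Cytosolic ribosomal protein genes gave 34 TTS peaks in vector, 35 with wild-type and 21 with G325E, from 29 genes, 66 of 90 in the named gene and 29 with a stop codon inside. RPL28 had the most, 3, 3 and 4, all in its own exons, and the 3 lists had 216 bases in common there. RPL38 had 1, 1 and 4, of which 1 per list lay over the stop codon on the strand of RPL38. The other RPL38 peaks of G325E were on the opposite strand. RPS26 had 1, 3 and 1. RPL18, RPS19 and the proteasome subunit PSMB3 had 1 peak over the stop codon in every list. Many ribosomal proteins have processed copies in the genome. The study counts reads mapped to a unique place, and values of genes with near-identical copies remain uncertain.

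Histone genes gave 24 peaks in vector, 27 with wild-type and 25 with G325E, from 25 genes, 46 of 76 in the named gene and 23 with a stop codon inside. Replication-dependent histone mRNAs end in a stem-loop and not in a poly(A) tail. Each of the 19 histone genes with a TTS peak in its own exon held, in the last 50 bases of its model, a stretch of 6 bases followed after 4 bases by its reverse complement, against 3.68% of all coding genes. AATAAA was in the last 50 bases, on the transcript's strand, of 0 of these 19, against 63.0% of all coding genes, and ATTAAA in 0 against 17.9%. The 4 forms of the repeat are printed below from GRCh37 with the paired stems in capitals, and they lie downstream of the stop codons.
H3C10 (the form in 10 genes), chr6:27778294-27778309, plus strand: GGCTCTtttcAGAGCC
H4C16 (in 6 genes), chr12:14923658-14923673, minus strand: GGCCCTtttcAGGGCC
H4C14 (in 2 genes), chr1:149804596-149804611, plus strand: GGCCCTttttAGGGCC
H2BC10 (in 1 gene), chr6:26273620-26273635, plus strand: GGCTCTtctaAGAGCC

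H3C14 had the most peaks, 1, 6 and 1, of which 1 lay in its own exon, 1 in the copy H3C15 and 6 in no exon. H3C10, H3C12 and H2AC16 each had 1 peak in every list, over the stop codon. H4C16 had 2, 1 and 3 peaks and H2BC10 1, 1 and 1. H1-4 and H4C4 had 1 in every list, outside coding sequence. H3C1 had 2, 2 and 2, all in the neighbouring H4C1. The 4 peaks named to H2AC19 were placed on a near-identical copy, and reads of the copies cannot be told apart.

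Other gene groups gave few TTS peaks. Respiratory chain subunits gave 15, 17 and 3 peaks from 8 genes, led by NDUFB7 (7, 5 and 1, with 12 of 13 within TECR) and NDUFB10 (4, 6 and 0, all in RPS2). Mitochondrial ribosomal proteins gave 3, 10 and 6 from 8 genes, with MRPS34 (0, 0 and 5) the highest, followed by MRPS15 (1, 1 and 1) and MRPL23 (1, 2 and 0). Translation factors gave 1, 8 and 5 from 5 genes, among them EIF6 (0, 3 and 3) and EEF1A2 (0, 4 and 1). Proteasome subunits gave 2, 9 and 1 from 4 genes, hnRNP genes 0, 1 and 0, and small nuclear RNAs and heat shock genes 0 in each list.

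TTS peaks were short. The median was 28 bases in vector (quartiles 20 and 49), 28 with wild-type (20 and 51) and 31.5 with G325E (21 and 55.25), and the longest were 257, 178 and 242 bases. Other peaks had medians of 29, 29 and 30 bases, the 3' UTR class 24, 22 and 24, and the exon class 36, 35 and 38, so TTS peaks lay between the last 2. Peaks under 10 bases numbered 80, 128 and 62, and 8, 12 and 9 had no length. Without those under 10 bases the medians were 31, 32 and 35. In total TTS peaks covered 25028, 38020 and 24335 bases.

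Sharing between lists was measured as overlap by at least 1 base with any peak of another list. TTS peaks of vector overlapped a wild-type peak in 510 of 637 cases (80.1%, 76.8 to 83.0), against 76.8% of all vector peaks, and a G325E peak in 288 (45.2%, 41.4 to 49.1), against 48.1%. Those of wild-type overlapped a vector peak in 480 of 971 cases (49.4%, 46.3 to 52.6), against 41.6%, and a G325E peak in 333 (34.3%, 31.4 to 37.3), against 34.9%. G325E peaks of the class overlapped a vector peak in 305 of 568 cases (53.7%, 49.6 to 57.8), against 35.4%, and a wild-type peak in 378 (66.5%, 62.6 to 70.3), against 47.3%. G325E TTS peaks were thus found in the other lists more often than G325E peaks at large, and so were G325E peaks of the exon class. In any other list were 70.2% of G325E TTS peaks, 67.0% of its exon class and 51.1% of all its peaks, and in both others were 284 of the 568 TTS peaks, 46.2% of the exon class and 31.6% of all. In neither other list were 16.3%, 41.4% and 29.8% (vector, wild-type, G325E) of TTS peaks, against 17.5%, 46.3% and 48.9% of all peaks. These unshared TTS peaks were the shorter ones, with medians of 22, 22.5 and 26 bases, against 43, 49 and 38 for those in both others. Over all peaks the medians were likewise 22, 24 and 27 bases, against 41, 46 and 39. In G325E the unshared TTS peaks were also richer in GC, at a mean of 74.6% against 61.8%. The same held over all G325E peaks, at 78.3% against 65.7%.

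By gene, 120 of the 398 (30.2%) had a TTS peak in all 3 lists, while 38.0% of genes with a peak of any class had one in all 3. The measures are unlike, since the first needs a TTS peak in each list and the second a peak of any class. How many of the 398 had a peak of any class in all 3 was not counted. Vector and wild-type alone shared 92 genes, wild-type and G325E 33, and vector and G325E 6. Wild-type alone had 92 genes, G325E alone 39 and vector alone 16. These patterns were not counted over genes with a peak of any class, and the lists differ in size. Whether the counts are particular to the TTS class was therefore not tested. The mean GC content of the 31 bases at the midpoint was 53.2% for TTS peaks of the 92 genes without G325E, 62.6% for those of the 120 and 75.1% for those of the 39 in G325E only. The list means were 58.8% ± 12.3 in vector, 59.8% ± 12.7 with wild-type and 67.4% ± 12.4 with G325E (SD over peaks), against 62.9%, 62.4% and 73.3% for other peaks.

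**Figure D5:**
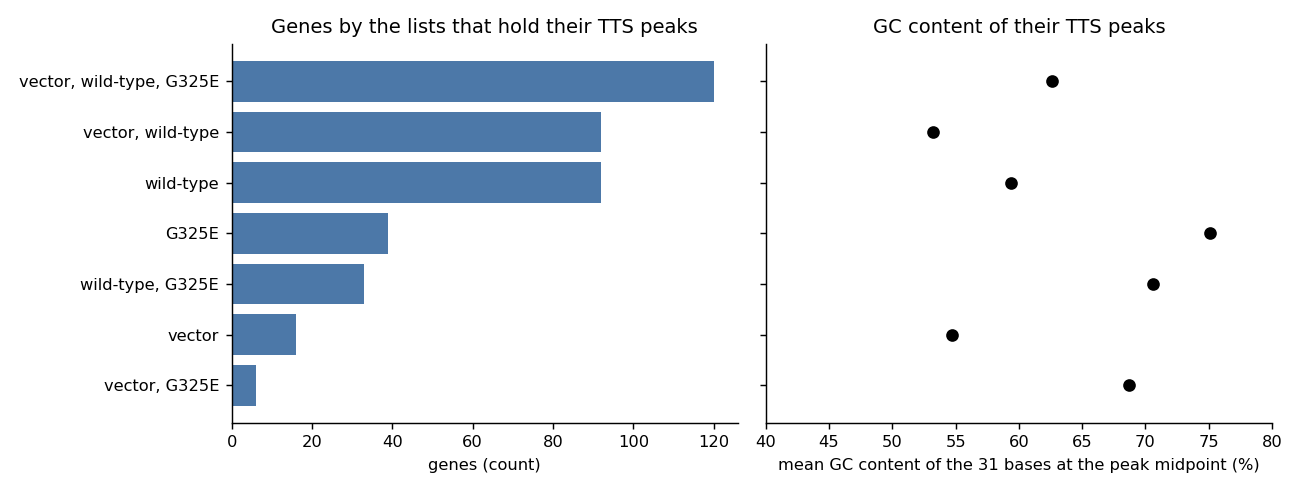
Left, number of genes whose TTS peaks were in each combination of lists, with 120 in all 3. Right, mean GC content (%) of the 31 bases at the midpoint of those genes' TTS peaks, from 53.2% for vector and wild-type to 75.1% for G325E alone.

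Among the genes without a TTS peak in G325E, RPAIN came first with 10 in vector and 8 in wild-type, all in C1QBP, a mitochondrial matrix protein. C1QBP had 15, 17 and 6 peaks of any class, so it was not absent from the G325E list. DDIT3, a stress-response transcription factor, was named by 8 and 8 peaks in coding sequence of MARS1, the methionyl-tRNA synthetase, which had 12, 18 and 0 peaks of any class. MIR367 was named by 8 and 7 within LARP7, an RNA-binding protein, which had 9, 8 and 0, and whose TTS peaks had a mean GC content of 37.9%. CDT1, a replication licensing factor, was named by 4 and 8 in APRT, the adenine salvage enzyme.

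Genes in wild-type and G325E without vector were fewer. SPOUT1 was named by 0, 8 and 12 peaks within ENDOG, a mitochondrial nuclease, 14 of them in its exons, and ENDOG had 0, 10 and 14 peaks of any class. BBS7 was named by 0, 6 and 5 within CCNA2, cyclin A2, which had 4, 12 and 9.

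Genes found in 1 list only had fewer peaks. In wild-type these were led by NOXO1 with 11 peaks, all in coding sequence of TBL3, a nucleolar protein with 0, 20 and 2 peaks of any class. SLIRP had 7, in the splicing factor gene SNW1, RNASEK 7, in C17orf49, MIR943 6, within NELFA, and MIR4326 5, within ARFGAP1. In G325E MAPK8IP3 had 10, all in exons of NME3, a nucleoside diphosphate kinase with 0, 0 and 14 peaks of any class. NEURL4 in GPS2, MIR935 in CACNG8, MIR4745 in PTBP1 and MLLT6 in CISD3 had 6 each. Their mean GC contents were 76.9%, 83.3%, 71.5% and 79.6%. In vector SNORA65 had 5 peaks, mostly in RPL12, PHF1 had 3 in CUTA, EBP and H1-2 had 2 and EEF1G had 1. Some of the neighbours had peaks of any class in every list: NELFA 6, 10 and 5, PTBP1 17, 19 and 30, and RPL12 12, 10 and 9. The other neighbours named here lacked peaks in at least 1 list.

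DDX3X itself had 0 TTS peaks in every list, with 0, 32 and 9 peaks of any class in vector, wild-type and G325E. The labels call the cells Neuronal, although HEK293T comes from kidney. Of 9 neuron markers 3 (TUBB3, NEFL and NEFM) had a peak in each list, while MAP2, RBFOX3, SYP, SNAP25, ELAVL3 and ELAVL4 had 0. Of 5 epithelial and kidney markers 0, 2 and 0 had a peak. ACTB had 25 peaks in each list and GAPDH 0, 21 and 0, so the absence of a peak does not show that a gene was not translated.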

How the data were processed

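The authors deposited 1 list of ribosome peaks per library, called in each sample separately. Per the labels, reads were trimmed with cutadapt and aligned with BWA 0.5.5 to hg19; the study's methods add that duplicates were removed, that peaks were called where coverage reached a set level, and that peaks were merged and reviewed by eye. The study's methods name cycloheximide without harringtonine. The file columns used were positions, strand, annotation and distance to the nearest start site; the deposited lists hold no counts, heights or scores.

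Members are the rows whose annotation begins with TTS. Members and gene lists were chosen with earlier results of these data known. Transcripts were named through RefSeq (2129 peaks), the lists' own names (19) or left without a symbol (28). Midpoints were placed on GENCODE v44lift37 models of GRCh37, coding sequence before 3' UTR, 5' UTR, non-coding exon and intron, then by strand and named gene. A model end over 6000 bases away was not taken as the named gene. Peaks of no length counted as 1 base. A share of 3 peaks, taken as the floor, was 0.0267% in vector, 0.0151% with wild-type and 0.0191% with G325E. Named genes were DDX3X, the 10 with the most TTS peaks, the 10 with the most bases in all 3 lists and 5 per list found there only; group members, stop codon sites, neighbours and genes missing from 1 list were chosen after their values were seen. Overlaps, intervals and places were tested on simulated data. Python 3.11.15, pandas 2.3.3, numpy 2.4.6, pysam 0.24.0 and matplotlib 3.10.9 were used. Alternatives are in the closing section. Some genes that the rule names are not reported here.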

Additional observations from a re-analysis of the deposited data

How the results depend on the processing

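The share of TTS peaks in coding sequence stayed within its interval in 9 of 9 alternatives, and no difference in TTS share changed its sign. The cause of the changes below was not tested. Values are in the order vector, wild-type, G325E.

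The TTS share of G325E minus wild-type moved to -0.50 points in genes with a peak in all 3 lists, -0.24 at equal GC content, -0.63 without promoter-TSS peaks, -0.39 for peaks on the named strand and -10.94 in the window of any GENCODE end. G325E minus vector moved to -1.41 for coding transcripts only, -1.18 in genes with a peak in all 3 lists, -0.88 at equal GC content, -0.70 on the named strand and -11.85 in the GENCODE window. For coding transcripts only, TTS peaks were on the named strand in 34.5%, 37.4% and 48.7%. The median length was 31, 32 and 35 bases without peaks under 10 bases, and 49 for wild-type and 43 for G325E among equal numbers of the longest peaks. Overlap with any other list was 72.1%, 51.8% and 57.6% where 50% of both peaks had to be shared. It was 60.4% for vector and 72.4% for wild-type among the longest peaks, 71.6% for wild-type and 81.9% for G325E in genes with a peak in all 3 lists, and 76.3% for G325E at equal GC content. In those genes 11.3%, 12.7% and 10.4% had a TTS peak, so the order of vector and wild-type turned.

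No paired analysis was possible because there was 1 library per construct. The lists give no heights, so a peak missing from a list cannot be told apart from one below the calling level.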

Other observations

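Some gene pairs named each other. At 15 pairs, with 167 TTS peaks in all, peaks named to one gene lay in exons of the other and the reverse. LONP1, a mitochondrial protease, was named by 7, 7 and 4 peaks (vector, wild-type, G325E) in RPL36, and RPL36 by 3, 3 and 0 in LONP1. NDUFB10 was named by 4, 6 and 0 peaks in RPS2, and RPS2 by 3, 2 and 0 in NDUFB10. ELOB, a subunit of elongin, was named by 0, 5 and 0 peaks in SRRM2, a splicing factor, and SRRM2 by 4, 5 and 0 in ELOB.

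TTS peaks in no exon numbered 175. Of these 21 in vector, 52 with wild-type and 31 with G325E were in introns and 24, 35 and 12 were outside every model. MIR4444-1 had the most, with 4, 6 and 0, all in introns, at a mean GC content of 75.5%. CRAMP1 had 0, 5 and 3, also in introns, at 79.0%. AMPD3, an AMP deaminase, had 3, 3 and 0 outside every model, at 51.1%.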
